A study of Mus musculus with 6 samples.

Results

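The Slc25a genes encode the mitochondrial carrier family, and every probe whose gene symbol in the platform annotation starts with Slc25a was taken. This gave 57 of the 25697 probes on the array, for 39 of its 16593 named genes, of which 26 had 1 probe and 13 had more than 1. The arrays were Illumina BeadChips, whose probes shine brighter the more labelled RNA they bind, and the RNA came from whole livers of C57BL/6 wild-type mice. The Ad-MafG group held 3 mice and the Ad-Control group, given Ad-CMV, held the other 3; livers were harvested 5 days into treatment after a fast of 4 to 6 h. Each sample was 1 mouse, and both groups share the strain, the vector type, the treatment time and the fast. The labels name no promoter for the MafG vector, no dose and no age or sex of the mice. MafG belongs to the small Maf transcription factors, which lack an activation domain and pair with proteins such as NRF2 or BACH1.

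Mitochondrial carriers are small proteins of the inner mitochondrial membrane that move metabolites, nucleotides, cofactors and ions between the cytosol and the matrix. Most of them work as exchangers, and the family includes the ADP/ATP carriers that supply the cytosol with ATP. In hepatocytes these carriers connect steps of the urea cycle, the malate-aspartate shuttle, fatty acid oxidation, fatty acid synthesis and gluconeogenesis that lie on opposite sides of the membrane. A few members lie elsewhere, such as Slc25a17 in the peroxisome and Slc25a46 in the outer mitochondrial membrane.

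Slc25a29, Slc25a33, Slc25a34 and Slc25a38 had probes that passed the test, all of them lower in livers labelled Ad-MafG. Their promoter windows are shown so that the sequence upstream of each can be read beside its values. Each window runs from 250 bases before to 50 bases after a start site in the RefSeq table of build GRCm38.p6 and is written 5′ to 3′ on the strand of the gene. The windows lie at chr12:108835827-108836126 for Slc25a29, chr4:149774218-149774517 for Slc25a33, chr4:141623785-141624084 for Slc25a34 and chr9:120110132-120110431 for Slc25a38. Slc25a38 lies on the plus strand and the others on the minus strand. Capitals mark a match, on either strand, to TGACNNNGC, the core of the antioxidant response element that NRF2 and small Maf dimers bind.
Slc25a29: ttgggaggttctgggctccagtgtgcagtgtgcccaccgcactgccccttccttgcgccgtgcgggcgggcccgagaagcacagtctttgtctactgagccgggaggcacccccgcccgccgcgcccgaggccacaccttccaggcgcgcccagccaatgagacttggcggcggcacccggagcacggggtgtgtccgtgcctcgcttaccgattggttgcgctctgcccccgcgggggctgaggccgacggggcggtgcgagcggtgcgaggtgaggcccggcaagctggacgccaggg
Slc25a33: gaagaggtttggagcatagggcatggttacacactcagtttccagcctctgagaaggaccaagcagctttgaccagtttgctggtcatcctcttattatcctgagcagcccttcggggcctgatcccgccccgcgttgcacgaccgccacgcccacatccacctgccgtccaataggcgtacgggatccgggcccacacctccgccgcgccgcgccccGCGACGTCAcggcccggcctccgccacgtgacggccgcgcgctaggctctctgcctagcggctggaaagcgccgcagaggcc
Slc25a34: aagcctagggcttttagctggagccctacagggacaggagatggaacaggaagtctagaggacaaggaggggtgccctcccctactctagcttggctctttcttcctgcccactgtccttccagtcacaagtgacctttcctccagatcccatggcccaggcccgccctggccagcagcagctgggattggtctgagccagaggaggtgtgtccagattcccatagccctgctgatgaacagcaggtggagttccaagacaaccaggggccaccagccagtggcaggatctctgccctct
Slc25a38: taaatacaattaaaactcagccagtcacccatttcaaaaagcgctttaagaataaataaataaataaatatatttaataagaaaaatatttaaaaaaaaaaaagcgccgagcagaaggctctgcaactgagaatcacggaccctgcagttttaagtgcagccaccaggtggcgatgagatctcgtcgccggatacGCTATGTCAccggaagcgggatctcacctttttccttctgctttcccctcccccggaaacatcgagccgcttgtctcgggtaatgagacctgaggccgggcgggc

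The window of Slc25a33 held 1 match, 32 bases before the start site, and that of Slc25a38 held 1 match, 55 bases before it, both on the strand opposite to the gene. No match lay in these windows of Slc25a29 and Slc25a34. The windows of Slc25a29 and Slc25a33 were rich in G and C, at 72.3% and 66.0%, with 32 and 30 CpG pairs. Slc25a34 had 59.0% G and C but 1 CpG pair, and Slc25a38 had 45.3% with 17. Among the 25 tested Slc25a genes with a window, 6 held TGACNNNGC: Slc25a33, Slc25a25, Slc25a38, Slc25a5, Slc25a3 and Slc25a14. The same letters were found in 12.4% of all 32851 windows of this length, and 3781 of 27025 genes had at least 1 such window. A second motif, TGCTGAC, which carries the flank that Maf proteins contact, was in 0 of these 25 genes. It was in 5.28% of all genes with a window and in 4.67% of all windows. The motifs may overlap. A match of letters is a description of the sequence and says nothing of binding.

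An array detected 12079 to 13042 of its 25697 probes, at a detection p-value under 0.05, and the median signal was 160.6 to 180 on Ad-Control arrays and 181.6 to 185.8 on Ad-MafG arrays. The Mafg probe was lower in the livers labelled Ad-MafG, by a log2 fold change of -0.54 (SE 0.11, limma, adjusted p = 0.0341), which goes against the label. Whether this probe reads the transcript of the vector was not tested, so every direction here is that of the livers as labelled. All 7 hepatocyte markers tested were detected on all 6 arrays and 0 of them passed the test, which 6.29% of all genes passed as higher and 3.63% as lower, with summed levels of 104516 to 108208 in Ad-Control and 98583 to 105291 in Ad-MafG livers. Of the 7, 6 had a log2 fold change below 0, against 52.8% of all genes. Hnf4a with -0.33 and Apoa1 with -0.06 had all Ad-MafG livers below all Ad-Control livers, as had 17.9% of all genes. The Alb and Tat probes were dim, with Ad-Control means of 6.70 and 6.42, so the sum rests on brighter probes. Kupffer cell and macrophage markers summed to 12349 to 15811 in Ad-Control and 23703 to 26508 in Ad-MafG livers, with 5 of 10 higher and 1, Cd163, lower. The 4 that did not pass were Timd4 with -1.48, Marco with -1.06, Clec4f with 0.27 and Vsig4 with 0.24. The sum thus does not stand for every marker of the list. Of 11 stellate cell and fibroblast markers 4 were higher and 0 lower, with sums of 13347 to 15167 and 15292 to 18043. Of these 4, Col1a2 was detected on 0 Ad-Control arrays and on 3 Ad-MafG arrays. It entered the test only through the group where it was high, so its call does not count as support. All of these markers had at least 1 array with a detected signal, and their part in the Slc25a results was not tested. In such bulk tissue, fewer cells of a type and less RNA per cell cannot be told apart.

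Of the 57 Slc25a probes, 40 were detected on at least 3 of the 6 arrays and entered the test, a share of 70.2% against 50.2% of all probes. They stood for 28 genes, and 27 of these were detected on all 6 arrays. The other 11 genes, Slc25a18, Slc25a21, Slc25a22, Slc25a27, Slc25a31, Slc25a35, Slc25a40, Slc25a41, Slc25a46, Slc25a48 and Slc25a53, were not tested. Of these, 10 were not above background on any array, and Slc25a22, a mitochondrial glutamate carrier, was detected on 1 Ad-MafG array. The untested genes include Slc25a31, the testis form of the ADP/ATP carrier, and Slc25a27 and Slc25a18, which are known from brain.

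Among the 28 tested Slc25a genes 3 fell in the livers labelled Ad-MafG, 0 rose and 25 did not pass (limma, threshold of 0.05 after Benjamini-Hochberg adjustment over 8827 genes). Over all genes 9.91% passed, 6.29% higher and 3.63% lower, so 3 of 28, or 10.7%, lies near the share of all genes. One of the 3, Slc25a29, entered the test only through the Ad-Control arrays, where it was high, so its call does not count as support. In the same fit, among genes detected on all 6 arrays, 2 of 27 Slc25a genes fell, or 7.41%. Among 7758 such genes 3.88% were lower and 9.62% passed in either direction. A separate fit with the filter set to detection on all arrays called 5 of 27 Slc25a genes, 4 lower and 1 higher. That fit called 1010 of 7767 genes, 430 of them lower. The genes past the threshold in the fit over 8827 genes were Slc25a29, Slc25a33 and Slc25a34. Slc25a29 is a carrier of arginine and lysine, Slc25a33 is a carrier of pyrimidine nucleotides, and the substrate of Slc25a34 is not settled. The log2 fold changes of the 28 genes, Ad-MafG minus Ad-Control, ran from -0.87 to 0.70 with a median of -0.14, beside a median of -0.02 over all genes. Values were below 0 for 17 Slc25a genes, or 60.7%, against 52.8% of all genes. At an unadjusted p under 0.05 there were 11 Slc25a genes, or 39.3%, of which 10 were lower and 1 was higher, against 29.8% of all genes. The groups did not overlap for 17 of them, or 60.7%, of which 11 had all Ad-MafG livers below and 6 above all Ad-Control livers. Over all genes 36.2% did not overlap, 17.9% below and 18.3% above.

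**Figure D1:**
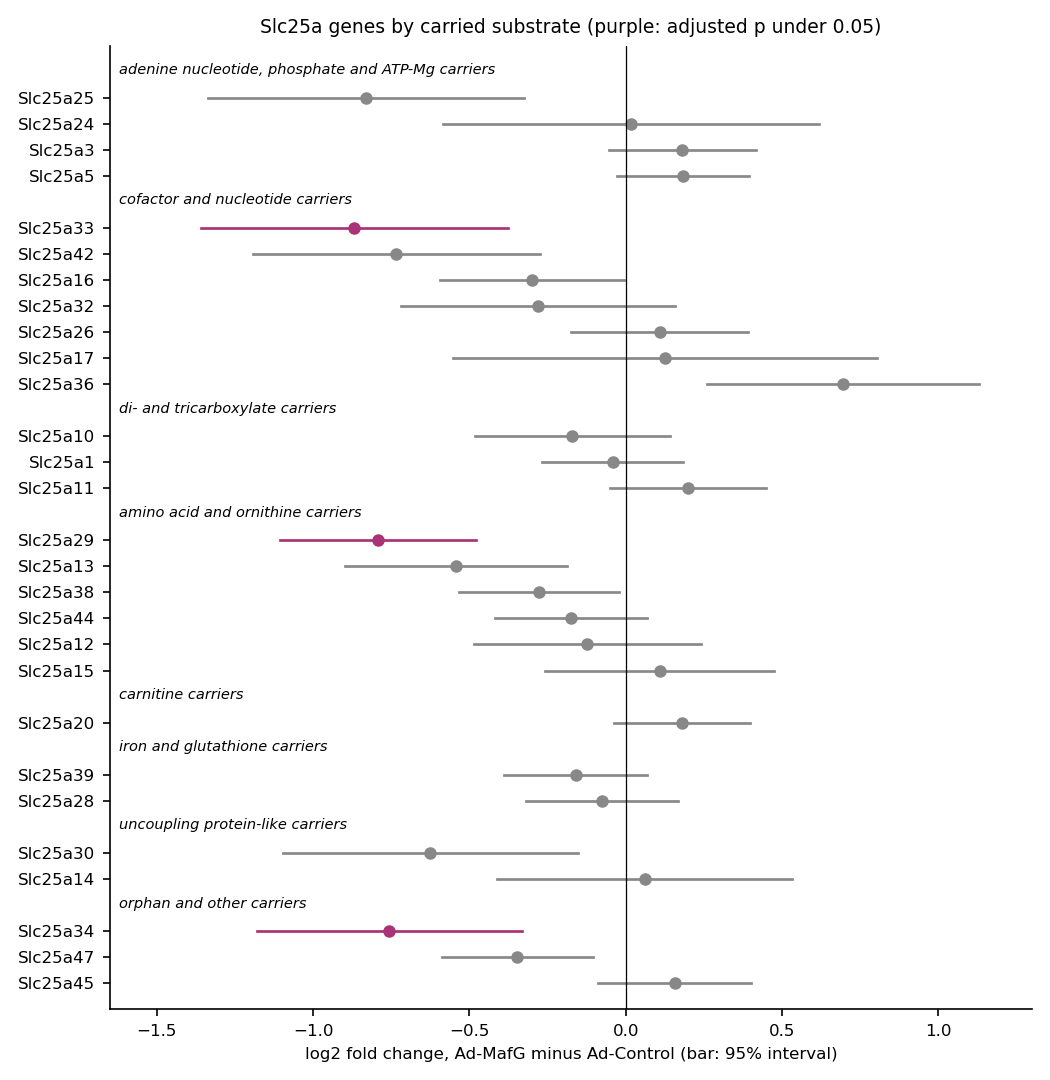
Log2 fold change of the 28 tested Slc25a genes, Ad-MafG minus Ad-Control, on the x axis, grouped by carried substrate; points are limma estimates from 3 livers a group, purple where the gene passed, and bars are 95% confidence intervals. The genes that passed, Slc25a29, Slc25a33 and Slc25a34, lie between -0.87 and -0.76, and the highest value is 0.70 for Slc25a36.

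The carriers of nucleotides and cofactors supply the matrix with the building blocks of mitochondrial DNA, RNA and coenzymes. Of 7 tested, 1 fell, 0 rose and 6 did not pass, with a median log2 fold change of -0.28. Over all genes 9.91% passed, 3.63% as lower, and the median was -0.02. Slc25a33 imports pyrimidine nucleotides into the matrix. Its normalized log2 intensity was 10.65, 10.23 and 10.99 in the Ad-Control livers and 9.91, 9.86 and 9.49 in the Ad-MafG livers. Every Ad-MafG liver lay below every Ad-Control liver, and Ad-Control 2 was the closest to them. The means were 10.62 ± 0.38 and 9.75 ± 0.23 (SD, n = 3 each), which differ by a log2 fold change of -0.87 (SE 0.21, limma, adjusted p = 0.0444), or 1.83-fold lower. This call was kept when Ad-Control 2 was left out but not when any other liver was, with adjusted p-values up to 0.138.

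Slc25a36, the other pyrimidine nucleotide carrier, had the highest log2 fold change of the family. Its probe was dim, with normalized log2 intensities of 7.09, 6.62 and 6.37 in Ad-Control and 7.40, 7.26 and 7.50 in Ad-MafG livers. All Ad-MafG livers lay above all Ad-Control livers, yet its difference of 0.70 did not pass (SE 0.19, limma, adjusted p = 0.0562). Slc25a33 and Slc25a36 thus had log2 fold changes of opposite sign, of which 1 passed; the difference between them was not tested. Without background correction the value of Slc25a36 was smaller, at 0.33, yet it passed in that fit.

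Slc25a42 imports coenzyme A in exchange for adenine nucleotides. It had normalized log2 intensities of 10.51, 9.89 and 10.51 in Ad-Control livers and 9.56, 9.77 and 9.37 in Ad-MafG livers. The groups did not overlap, but Ad-Control 2 lay close to Ad-MafG 2, and the log2 fold change of -0.73 did not pass (SE 0.20, limma, adjusted p = 0.0562). Slc25a16, which has been linked to coenzyme A transport, had a log2 fold change of -0.30 and did not pass (limma, adjusted p = 0.160). The remaining cofactor carriers had overlapping groups: Slc25a32, tied to folate and FAD, had -0.28, Slc25a26, the S-adenosylmethionine carrier, had 0.11 and the peroxisomal Slc25a17 had 0.13.

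**Figure D2:**
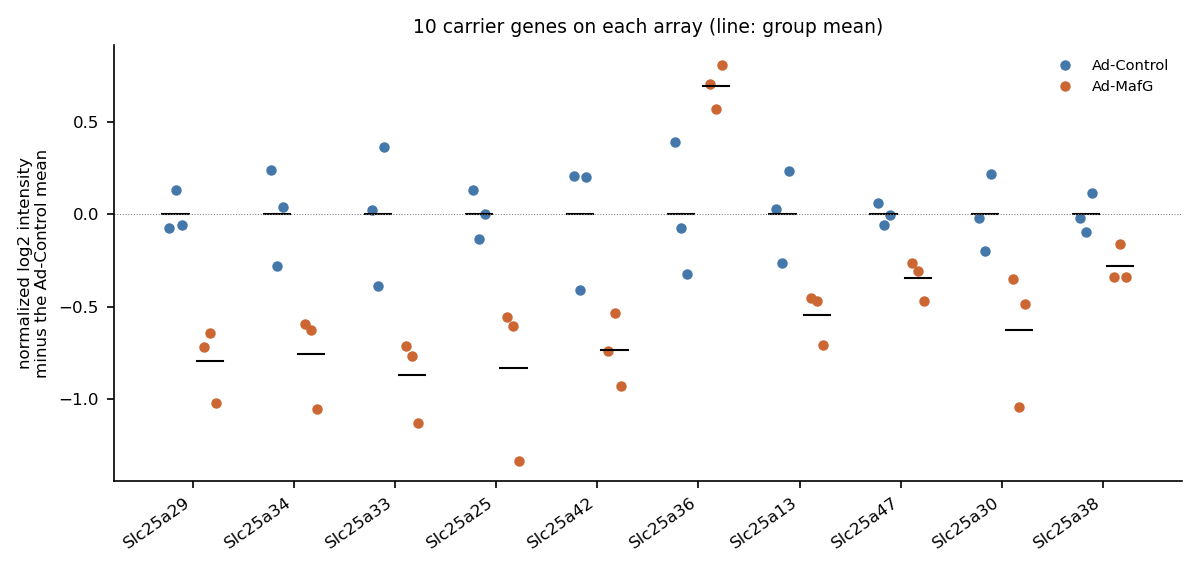
Normalized log2 intensity minus the Ad-Control mean of the gene (y axis) for 10 Slc25a genes (x axis); each point is 1 liver, blue for Ad-Control and orange for Ad-MafG (n = 3 each), and lines are group means. In Slc25a29, Slc25a33 and Slc25a34 all Ad-MafG points lie below all Ad-Control points, and in Slc25a36 they lie above.

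The adenine nucleotide, phosphate and ATP-Mg carriers set how much ATP, ADP and phosphate the matrix holds. Of 4 tested, 0 passed in either direction, and their median log2 fold change was 0.10. Slc25a25 is a calcium-regulated carrier that exchanges ATP-Mg for phosphate. It gave 12.43, 12.16 and 12.29 in the Ad-Control livers and 11.74, 11.69 and 10.96 in the Ad-MafG livers as normalized log2 intensity. All Ad-MafG livers were lower, with Ad-MafG 3 the lowest by a wide margin. The log2 fold change was -0.83 and did not pass (SE 0.21, limma, adjusted p = 0.0523); without Ad-MafG 3 it was -0.58.

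Slc25a5, an ADP/ATP carrier, and Slc25a3, the phosphate carrier, have bright probes, among the 4 brightest of the family on these arrays, a rank of probes and not of transcripts. Slc25a5 had normalized log2 intensities of 14.24, 14.30 and 14.22 in Ad-Control and 14.41, 14.44 and 14.46 in Ad-MafG livers. For Slc25a3 the values were 12.92, 12.86 and 12.85 in Ad-Control and 12.95, 13.09 and 13.15 in Ad-MafG livers. On these probes of both genes the Ad-MafG livers lay above all Ad-Control livers by a small step. The log2 fold change was 0.18 for Slc25a5 (95% interval -0.03 to 0.40) and did not pass (limma, adjusted p = 0.221). It was 0.18 for Slc25a3 as well (95% interval -0.05 to 0.42) and did not pass (limma, adjusted p = 0.269). Their sign depended on the scaling: with median scaling over probes detected on all arrays they were -0.13 and -0.04. A second, dimmer Slc25a3 probe had overlapping groups, with a log2 fold change of 0.04 in the fit across probes. Slc25a24, another ATP-Mg carrier, had 0.02 with overlapping groups.

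The amino acid carriers serve the urea cycle, the malate-aspartate shuttle and heme synthesis. Of 6 tested, 1 was past the threshold, Slc25a29, which entered through its high group alone, and 5 did not pass. Of all genes 9.91% passed, 3.63% as lower. Slc25a29 transports basic amino acids, chiefly arginine and lysine. On its dim probe the normalized log2 intensity was 6.13, 6.34 and 6.14 in Ad-Control and 5.49, 5.56 and 5.18 in Ad-MafG livers. The groups did not overlap, and the probe was detected on all 3 Ad-Control arrays and on 0 of 3 Ad-MafG arrays. The means were 6.20 ± 0.12 and 5.41 ± 0.20 (SD, n = 3 each), and the log2 fold change was -0.79 (SE 0.13, limma, adjusted p = 0.0188). The probe reached the filter only through the group where it was high, so it had to differ, and the p-value is a description. With the background step used here Slc25a29 was at least 1.48-fold lower in the Ad-MafG livers, with each Ad-MafG array set at its lowest detected signal or at the probe where that was higher; the bound belongs to that step alone.

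The size of the Slc25a29 difference depended on how background was removed. In the non-normalized table its mean bead signal was 177, 211.4 and 182 on Ad-Control arrays and 176.8, 181.6 and 158.4 on Ad-MafG arrays. Those values overlap between the groups. The log2 fold change was -0.25 without background correction and -1.42 on the authors' scaled values. The authors' deposited table gave Slc25a29 group means of 64.6 and 25.1 with a difference score of -8.02. Its adjusted p (limma) was 0.0600 without Ad-MafG 1 and 0.0515 without Ad-MafG 3. Leaving out a liver changed only the fit, and the detection filter still used all 6 arrays. The probe reached that filter through the 3 Ad-Control arrays alone, so fits without an Ad-Control liver cannot test its call.

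Slc25a13, known as citrin, exports aspartate from liver mitochondria in exchange for glutamate and so feeds both the urea cycle and the malate-aspartate shuttle. Its brighter probe had normalized log2 intensities of 9.97, 9.67 and 10.17 in Ad-Control and 9.48, 9.47 and 9.23 in Ad-MafG livers. The groups did not overlap, and the log2 fold change of -0.54 did not pass (SE 0.15, limma, adjusted p = 0.0628). The second Slc25a13 probe also had all Ad-MafG livers lower, with a log2 fold change of -0.63 in the fit across 12893 probes, and did not pass (limma, adjusted p = 0.0892). Slc25a12, the aspartate-glutamate carrier of brain and muscle, had -0.12 with overlapping groups. Slc25a15, the ornithine carrier of the urea cycle, had 0.11 with overlapping groups, and its second probe had 0.09. Slc25a44, which carries branched-chain amino acids, had a log2 fold change of -0.17.

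Slc25a38 imports glycine for the first step of heme synthesis, catalysed in red cell precursors by Alas2. Its probes gave unlike calls in the fit across probes, where 5 of 40 Slc25a probes, that of Slc25a29 among them, were lower and 0 higher, against 9.9% of all probes that passed, 3.99% lower and 5.91% higher. The brightest probe had 11.21, 11.13 and 11.34 in Ad-Control and 10.89, 11.07 and 10.89 in Ad-MafG livers as normalized log2 intensity, a log2 fold change of -0.28 that did not pass (limma, adjusted p = 0.148). The next probe had 8.80, 8.55 and 8.97 against 8.20, 8.34 and 8.19, a log2 fold change of -0.53 that passed (SE 0.13, limma, adjusted p = 0.0481). The dimmest had 8.26, 8.18 and 8.23 against 7.77, 7.58 and 7.79, a log2 fold change of -0.51 that passed (SE 0.11, limma, adjusted p = 0.0312). All 3 Slc25a38 probes had every Ad-MafG liver below every Ad-Control liver. Leaving out 1 liver at a time, both calls were kept without Ad-Control 2 and lost without any other.

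Among the erythroid markers Alas2 was lower too, with a log2 fold change of -1.13 (SE 0.19, limma, adjusted p = 0.0183). The other erythroid markers tested, Hba-a1 with 0.40 and Tfrc with 0.71, did not pass, and the summed level of the 3 was 11799 to 17291 in Ad-Control and 14724 to 20576 in Ad-MafG livers. All 3 were detected on all arrays, and their part in the Slc25a38 values was not tested. Alas1, listed among the genes of heme and iron-sulfur synthesis, had -0.09 with overlapping groups and did not pass (limma, adjusted p = 0.615).

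**Figure D3:**
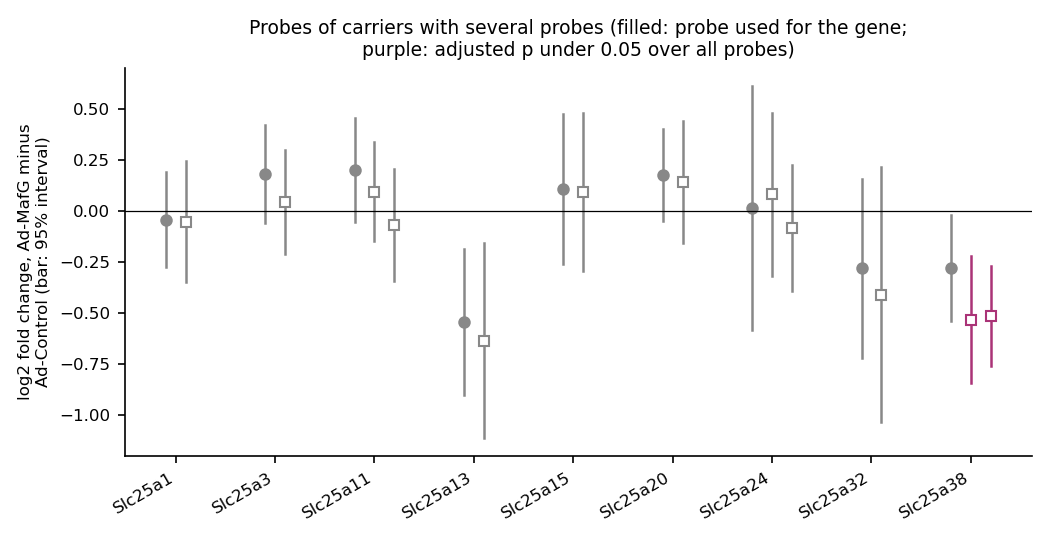
Log2 fold change, Ad-MafG minus Ad-Control, of each probe past the detection filter for Slc25a genes with more than 1 such probe; the filled circle is the probe that stood for the gene, purple marks probes that passed and bars are 95% confidence intervals from the limma fit across 12893 probes, n = 3 a group. The 3 Slc25a38 probes lie at -0.28, -0.53 and -0.51, and Slc25a11 and Slc25a24 have probes on both sides of 0.

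The other genes with several probes past the filter can be read the same way. There were 9 such genes, and in 7 of them all probes had 1 sign. The exceptions were Slc25a11, with 0.20, 0.10 and -0.07, and Slc25a24, with 0.02, 0.08 and -0.08. A further probe of Slc25a34 and another of Slc25a20 were detected on 0 arrays, so each of these genes rests on the remaining probes. Slc25a32 had a dimmer probe with a log2 fold change of -0.41, and the second probe of Slc25a1 had -0.05.

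The di- and tricarboxylate carriers link the citric acid cycle to the cytosol, and 0 of the 3 tested passed. Slc25a11, the 2-oxoglutarate and malate exchanger of the malate-aspartate shuttle, had a log2 fold change of 0.20 with no overlap between the groups (limma, adjusted p = 0.250). Its other probes, with 0.10 and -0.07, had overlapping groups. Slc25a10, the dicarboxylate carrier, had -0.17, and Slc25a1, the citrate carrier that exports acetyl units for fatty acid synthesis, had -0.04; both had overlapping groups. The 95% interval of the Slc25a1 difference ran from -0.27 to 0.18.

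Slc25a20 is the carnitine-acylcarnitine carrier through which long-chain fatty acids enter the matrix. Its normalized log2 intensities were 13.69, 13.63 and 13.64 in Ad-Control and 13.77, 13.84 and 13.89 in Ad-MafG livers. The Ad-MafG livers lay slightly above, but the log2 fold change of 0.18 did not pass (SE 0.09, limma, adjusted p = 0.242) and was -0.09 with median scaling. A dimmer Slc25a20 probe had overlapping groups, with 0.14 in the fit across probes. Slc25a39, which imports glutathione, had -0.16 and the iron carrier Slc25a28 had -0.08. Neither passed. Slc25a40, a close relative of Slc25a39, was not detected on any array.

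The uncoupling protein-like carriers Slc25a30 and Slc25a14 are related by sequence to the uncoupling proteins. Slc25a30 had normalized log2 intensities of 10.11, 9.94 and 10.35 in Ad-Control and 9.78, 9.09 and 9.65 in Ad-MafG livers. All Ad-MafG livers were lower, with Ad-MafG 2 the lowest, and the log2 fold change of -0.63 did not pass (SE 0.20, limma, adjusted p = 0.0893). Slc25a14 had 0.06 with overlapping groups.

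Of the 3 carriers grouped as orphan or other, 1 fell and 2 did not pass, with a median log2 fold change of -0.35. Among all genes 3.63% fell, and the median was -0.02. Slc25a34 had normalized log2 intensities of 7.66, 7.14 and 7.46 in Ad-Control and 6.82, 6.79 and 6.37 in Ad-MafG livers. The Ad-MafG livers were all lower, and Ad-Control 2 was the closest of the Ad-Control livers to them. The means were 7.42 ± 0.26 and 6.66 ± 0.26 (SD, n = 3 each), which differ by a log2 fold change of -0.76 (SE 0.18, limma, adjusted p = 0.0436), or 1.69-fold lower. As for Slc25a33, the Slc25a34 call was kept without Ad-Control 2 but not without any other liver, with adjusted p-values up to 0.124. Without background correction the Slc25a34 value was -0.36.

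Slc25a47 is a carrier found mainly in liver, and its probe had the highest mean of the family over all 6 arrays, though in the Ad-MafG livers the Slc25a5 probe was brighter. It had normalized log2 intensities of 14.62, 14.50 and 14.56 in Ad-Control and 14.30, 14.26 and 14.09 in Ad-MafG livers. The groups did not overlap, and the log2 fold change of -0.35 did not pass (SE 0.10, limma, adjusted p = 0.0739). Slc25a45 had 0.16 with no overlap and did not pass (limma, adjusted p = 0.355).

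The non-normalized mean bead signal gave another count of separated genes. On that scale 15 of the 28 Slc25a genes did not overlap, 10 with Ad-MafG above and 5 below, while over all genes 45.3% did not overlap, 42.5% above and 2.81% below. The 5 genes below were Slc25a34, Slc25a33, Slc25a25, Slc25a42 and Slc25a47. Slc25a33 had 1439.6, 1357.1 and 1968.9 on Ad-Control arrays and 1215.3, 1123.1 and 951.7 on Ad-MafG arrays. Slc25a25 had 4824.2, 4850.5 and 4773.3 against 3822.6, 3656.3 and 2346.6. These genes were lower on Ad-MafG arrays although the median signal of those arrays was higher. Slc25a29, Slc25a13, Slc25a30, Slc25a38, Slc25a16 and Slc25a39 overlapped on this scale and were separated after normalization. Slc25a1, Slc25a15, Slc25a26 and Slc25a28 were separated on this scale, with Ad-MafG above, and overlapped after normalization.

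In the authors' deposited table the difference score had the sign of the fitted value for 26 of the 28 genes, the exceptions being Slc25a5 and Slc25a15. That table gave Slc25a33 an Ad-Control mean of 1569.7 and an Ad-MafG mean of 854.1 with a score of -13.6. In the authors' deposited table Slc25a25 had means of 5034.1 and 2814.7 with a score of -28.0, and Slc25a47 had 25727.4 and 17310.0 with -25.0. Slc25a34 had 156.8 and 90.8 there with -11.2, and Slc25a36 had 94.5 and 158.4 with 12.8 in the authors' deposited table. The scores of Slc25a25 and Slc25a47 were thus larger in size than those of the genes that passed here.

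The proteins that work beside the carriers were read from lists chosen with earlier results of these data known. Among the enzymes of citrate export and lipogenesis 3 of 7 rose and 0 fell, where 6.29% of all genes rose, while Slc25a1 itself had -0.04. They were Me1, the cytosolic malic enzyme, with a log2 fold change of 0.96 (SE 0.13, limma, adjusted p = 0.0118), and Acaca, the first enzyme of fatty acid synthesis, with 0.83 (SE 0.16, limma, adjusted p = 0.0284). Cs, citrate synthase of the matrix, had 0.56 (SE 0.13, limma, adjusted p = 0.0387). Fasn with -0.40 and Elovl6 with 0.14 did not pass. The median of the list was 0.14.

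Of 7 urea cycle enzymes 2 fell and 0 rose, where 3.63% of all genes fell, with a median log2 fold change of -0.24. Otc, which joins ornithine and carbamoyl phosphate in the matrix, had -0.98 (SE 0.16, limma, adjusted p = 0.0170), and Asl, which splits argininosuccinate in the cytosol, had -1.18 (SE 0.23, limma, adjusted p = 0.0278). Cps1 with -0.24 and Ass1 with -0.40 did not pass. The carriers beside them, Slc25a13 with -0.54 and Slc25a15 with 0.11, did not pass.

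Among 3 enzymes of glutathione synthesis 1 rose, where 6.29% of all genes did. Gclc, the catalytic subunit of the first step, had 1.46 (SE 0.21, limma, adjusted p = 0.0123), while Gss with 0.60 and Gclm with 0.36 did not pass. The glutathione carrier Slc25a39 had -0.16.

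Leaving out 1 liver at a time, Me1 and Gclc passed in 5 of 6 fits, not without Ad-MafG 1, and Otc in 4, not without Ad-MafG 1 or Ad-MafG 3. Acaca and Asl passed in 2 of 6, without Ad-Control 2 or Ad-MafG 2, and Cs passed in 1, without Ad-MafG 2.

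The remaining lists held no gene that passed. Of 10 genes of heme and iron-sulfur synthesis, beside Slc25a38 and Slc25a28, the nearest were Abcb10 with -0.38 and Fech with -0.27. Of 4 malate-aspartate shuttle enzymes the nearest were Mdh2 with 0.33 and Got2 with 0.25, and Got2 was -0.08 with median scaling. Of 6 genes of the carnitine shuttle and fatty acid oxidation Acadm had 0.33 and Acadl had -0.40. Of 11 genes of the machinery that brings carriers across the outer membrane and to the inner one Timm8b had 0.30 and Tomm6 had 0.23. Of 9 genes of mitochondrial biogenesis Polg had -0.37 and Ppargc1b had -0.46. The outer membrane channels Vdac3 with 0.12 and Vdac2 with 0.10, among 3 tested, and the carrier relatives Mtch2 with -0.18 and Mtch1 with -0.07 did not pass either.

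**Figure D4:**
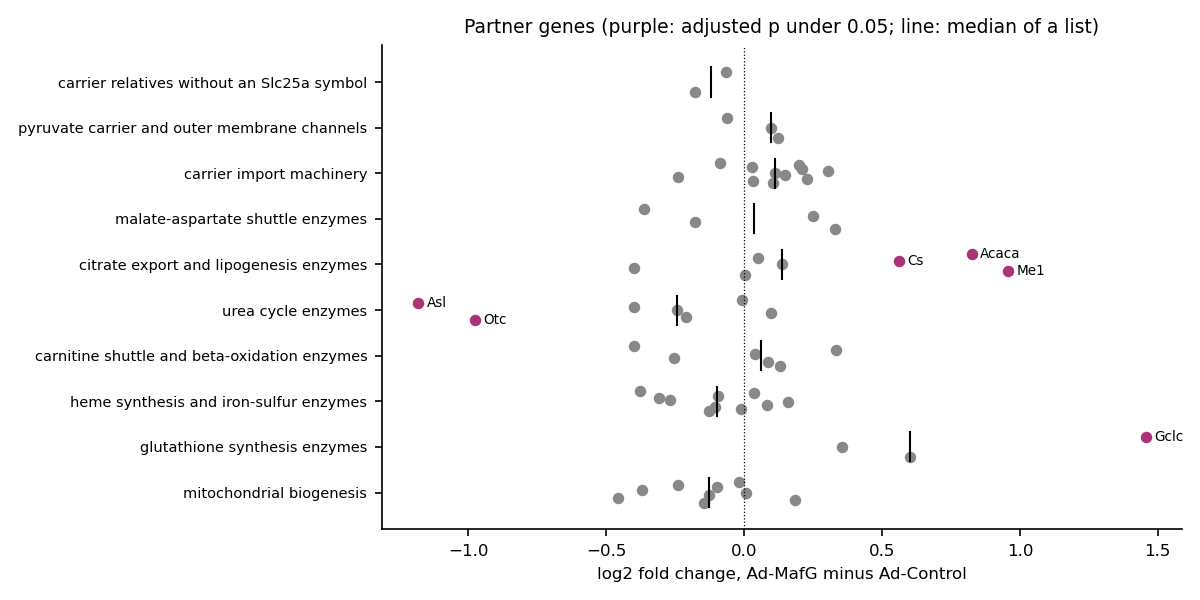
Log2 fold change, Ad-MafG minus Ad-Control, (x axis) of each tested gene in the 10 lists of partner proteins and relatives (y axis); each point is a gene, purple and named where it passed the test, and the vertical line is the median of a list. Me1, Acaca, Cs and Gclc lie above 0, and Otc and Asl below.

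The number of Slc25a genes that passed changed with the processing, from 0 to 8 over the alternatives that used all 6 arrays, with at most 1 of them higher. Among these alternatives is median scaling over all probes, which was chosen after seeing the data. Slc25a29 passed in 10 of the 11 such alternatives that tested it. Its probe reached the detection filter only through the Ad-Control arrays, where it was high, so these passes do not count as support. Slc25a33 and Slc25a34 passed in 9 of 12, Slc25a25 in 7 of 12 and Slc25a42 and Slc25a36 in 6 of 12. Slc25a13 and Slc25a47 passed in 4 of 12, Slc25a38 in 1 and Slc25a30 in 0. The number of Slc25a genes with a value below 0 was 16 to 22 over these alternatives and 17 to 20 when 1 liver was left out.

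**Figure D5:**
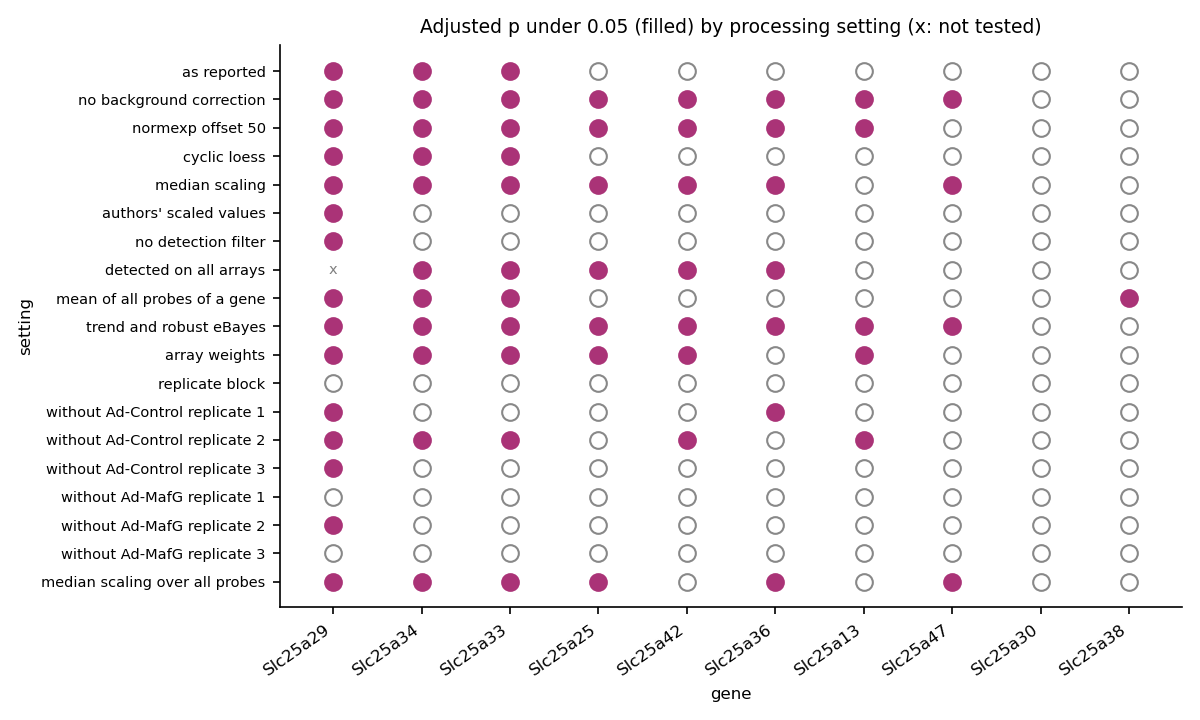
Which of 10 Slc25a genes (x axis) passed the adjusted p threshold of 0.05 under each processing setting (y axis); filled circles mark a pass, open circles a value that did not pass and x a gene not tested. Slc25a29, Slc25a33 and Slc25a34 are filled in most settings that keep all 6 arrays, and Slc25a33 and Slc25a34 in 1 of the 6 that leave out a liver. Slc25a29 reached the detection filter only through the group where it was high, so its circles do not count as support.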

How the data were processed

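The members, the lists and the rule for named genes were chosen with earlier results of these data known. QIAzol and an RNeasy kit served for RNA extraction and a TotalPrep kit for biotin labelling, per the labels' protocols. The names of all 6 arrays share 1 number and differ in a letter, and the labels name no slide. The deposited non-normalized table holds, per the file headers, the mean bead intensity of each probe and a detection p-value. A second deposited table holds intensity that the authors background-subtracted and scaled; each of its columns was a straight line of its array's non-normalized signal, uncentred and of known direction, with medians of 41.1, 39.6 and 46.0 in Ad-Control and 34.2, 36.6 and 35.9 in Ad-MafG livers. The authors' deposited table gives group means of those intensities, their standard deviation over arrays (on the signal scale), the count of arrays, a detection p-value and a signed difference score. Not given in the sources used here are the scaling method, the error model of the score and the scanner software.

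Intensities were background-corrected by normexp from the detection p-values (offset 16), quantile normalized and taken to log2 with limma 3.58.1 in R 4.3.3; the deposited values themselves are linear, not log2. Probes detected at p under 0.05 on at least 3 of 6 arrays were kept, 12893 of 25697, and the probe with the highest mean over the 6 arrays stood for its gene. Of all probes 23978 had 1 gene symbol, 1719 had none and 0 had several; all 57 Slc25a probes matched the RefSeq table of GRCm38.p6 by Entrez number, with 0 symbols changed. A limma model with group alone (lmFit, then eBayes) gave two-sided p-values, adjusted by Benjamini-Hochberg over 8827 genes or, for probes, over 12893. The limma fit alone was run on simulated normalized values, with shifts larger than the difference of any Slc25a gene here. That run left out the background and filter steps, so it is no support for the calls. The number of arrays limits the precision. A summed level is the sum of normalized values of a list on the linear scale. Named were all tested Slc25a genes, with values on every array for those with a probe past the threshold, the next 6 by adjusted p and the 4 with the brightest probes, and of the partner lists the genes past the threshold and the next 2. Of the 9 marker lists, those of lymphocytes (T and NK, B and plasma), neutrophils, cholangiocytes and sinusoidal endothelium held 0 genes that passed. Same-numbered livers correlated at 0.035, -0.138 and -0.125 in their deviations from the group means, so the numbers were not taken as pairs. The alternatives were no background correction, an offset of 50, cyclic loess, median scaling, the authors' scaled values, no detection filter, detection on all arrays, the mean of a gene's probes, a trended and robust eBayes, array weights, a replicate block and each liver left out. Median scaling over all probes was added after seeing the data. Where a liver was left out, normalization, detection filter and probe choice still used all 6 arrays.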

Additional observations from a re-analysis of the deposited data

How the results depend on the processing

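All counts are at adjusted p under 0.05 by limma. Over all genes 875 passed, against 1316 without background correction, 1319 with a trended and robust eBayes and 141 with the replicate number as a block; leaving out 1 liver gave 159 to 1169. The share of higher genes among those that passed was 63.4%, against 52.5% with median scaling over detected probes, 75.3% with median scaling over all probes, an alternative chosen after seeing the data, and 82.3% with the block. For Slc25a genes the count of 3 became 8 without background correction, 7 with an offset of 50, 7 with median scaling, 6 with median scaling over all probes, 1 on the authors' scaled values, 1 without a detection filter, 5 with detection on all arrays, 8 with a trended and robust eBayes, 6 with array weights and 0 with the block, and 0 to 5 without 1 liver. The probe count of 1276 became 840 without a filter and 112 with the block, and 232 to 1664 without 1 liver. The count of partner genes, 6, became 11 without background correction, 12 with a trended and robust eBayes and 2 with the block, and 0 to 6 without 1 liver.

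Values that changed sign were, with median scaling, Got2 at -0.077, Slc25a15 at -0.10, Slc25a20 at -0.087, Slc25a3 at -0.036, Slc25a5 at -0.13, Vdac2 at -0.031 and Vdac3 at -0.017. On the authors' scaled values these were Slc25a15 at -0.0051 and Slc25a5 at -0.041, with median scaling over all probes Slc25a12 at 0.020 and Slc25a5 at -0.017, and with the mean of all probes Mtch2 at 0.066. Leaving out 1 liver, Slc25a14 ran from -0.12 to 0.21, Slc25a15 from -0.018 to 0.19, Slc25a17 from -0.068 to 0.39 and Slc25a24 from -0.24 to 0.21. The cause was not tested. With the block the adjusted p was 0.0571 for Slc25a29, 0.106 for Slc25a33 and 0.0887 for Slc25a34; the numbers do not pair the livers, and number 1 alone had each liver correlate best with its own number. Slc25a29 lies near background, where the offset and the background step set its size. With 3 livers a group, calls near the threshold depend on single livers.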
